A study of Mus musculus with 24 samples.

Results

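The genes described here encode 9 enzymes with which the mouse liver breaks down amino acids: Hal and Uroc1 for histidine, Gls2 for glutamine, Sds and Sdsl for serine and threonine, Tdo2 for tryptophan, Hpd and Hgd for the aromatic ring of phenylalanine and tyrosine, and Prodh for proline. They were taken by symbol from a table of read counts with 78298 gene IDs. All 9 were found, and all 9 were among the 17456 genes with enough counts to be tested. The series compared livers of 18 mice of a steatohepatitis model (model mice) with livers of 6 normal control mice (controls), with 1 polyA-selected RNA-seq library per mouse. Steatohepatitis is fatty liver with inflammation. The labels give neither the diet, agent or genotype that makes the model nor strain, sex, age, feeding state or hour of sampling.

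Amino acid breakdown is largely a task of hepatocytes, the main cells of the liver. It removes nitrogen, which goes to the urea cycle, and leaves carbon chains that feed glucose synthesis or the citric acid cycle. Several of these enzymes are known to be most abundant around the portal vein, where blood enters the liver lobule, and many are known to be raised by fasting, by glucagon, by glucocorticoids or by a diet rich in protein. These statements are background and not results of these libraries.

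The promoters of Tdo2, Uroc1 and Hal are shown here because the results below set these genes apart: Tdo2 was lower in every model mouse than in any control, while Hal was lower and Uroc1 was not, although the products of both act in consecutive steps on histidine. The sequences are from RefSeq in the build GRCm38.p6, read 5′ to 3′ on the strand of the gene, from 250 bases before to 50 bases after the start site. They lie at chr3:81975679-81975978 on the minus strand, at chr6:90333039-90333338 on the plus strand and at chr10:93488518-93488817 on the plus strand, in the order of the names above. Capitals mark matches to the motifs named below.
Tdo2: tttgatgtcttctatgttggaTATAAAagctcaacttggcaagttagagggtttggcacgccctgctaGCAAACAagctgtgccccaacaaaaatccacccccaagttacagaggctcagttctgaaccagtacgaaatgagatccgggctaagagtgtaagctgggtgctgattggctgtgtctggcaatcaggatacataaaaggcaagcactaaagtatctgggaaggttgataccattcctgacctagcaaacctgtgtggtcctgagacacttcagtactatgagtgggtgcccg
Uroc1: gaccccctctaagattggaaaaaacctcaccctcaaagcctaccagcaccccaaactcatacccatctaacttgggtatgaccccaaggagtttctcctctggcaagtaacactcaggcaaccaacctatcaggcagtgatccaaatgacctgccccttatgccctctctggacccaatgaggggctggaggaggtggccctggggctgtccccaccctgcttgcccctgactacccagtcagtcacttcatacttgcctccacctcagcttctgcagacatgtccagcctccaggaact
Hal: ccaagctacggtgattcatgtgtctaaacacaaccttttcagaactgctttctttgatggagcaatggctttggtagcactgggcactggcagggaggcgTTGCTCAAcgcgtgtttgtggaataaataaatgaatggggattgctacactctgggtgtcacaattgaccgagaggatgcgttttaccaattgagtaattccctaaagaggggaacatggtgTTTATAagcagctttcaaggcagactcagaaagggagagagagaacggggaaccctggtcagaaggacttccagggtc

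Promoters of 6 of the 9 genes were in the RefSeq table, those of Tdo2, Hpd, Uroc1, Hal, Prodh and Hgd. They were searched on both strands for short forms of motifs of liver transcription factors. The letters TGTTTNC, a forkhead (FOXA) form, were in 1 of the 6 promoters, that of Tdo2, and in 20.5% of the 32544 promoters of the table. The letters TTGCNNAA, a C/EBP form, were in 2 of the 6, those of Hal and Hgd, and in 10.8% of all. The TATA box letters TATAAA were in 3 of the 6, those of Tdo2, Hal and Hgd, and in 13.6% of all. Forms for HNF1 (GTTAAT) and HNF4 (CAAAGNNCA) were in 0 of the 6, and in 7.13% and 6.38% of all promoters. Counting the first transcribed base as 0, the TATAAA match of the Hal promoter is at -28 to -23, read on the opposite strand. The TATAAA matches of Tdo2 and Hgd lie farther from the start site, at -229 to -224 and, on the opposite strand, at -139 to -134. The forkhead match of the Tdo2 promoter is at -182 to -176, also on the opposite strand. No match overlapped another. A match is a string of letters and no measured site, and the absence of a match says only that these letters are not in this window.

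Libraries held 32.2 M to 58.4 M counts in model mice and 31.6 M to 49.5 M in controls. The smallest count of any of the 9 genes in any library was 345, for Sdsl, so counting error was small beside the spread between mice. Levels are given as CPM, counts relative to the size of the library, with sizes scaled by TMM, a factor that sets the bulk of genes level between libraries. These factors averaged 1.06 ± 0.061 in model mice and 0.843 ± 0.0285 in controls (SD, n = 18 and 6). Genes that mark hepatocytes, 19 in all, were abundant in every library, with a summed level of 104900 to 165500 CPM in model mice and 178900 to 254000 CPM in controls, and 14 of the 19 were lower in model mice while 0 were higher with TMM (0 also at an unadjusted p below 0.05, and with DESeq2 and limma-voom). The same 19 genes gave 9 lower and 3 higher with library totals alone, and 8 lower and 5 higher with factors taken from these genes themselves. Markers of other cell types were mostly higher in model mice. Of 15 macrophage markers 14 were higher, with a summed level of 390.4 to 1483 CPM in model mice and 69.32 to 173.5 CPM in controls. All 12 T and B cell markers were higher (14.57 to 67.29 CPM in model mice and 5.374 to 9.626 CPM in controls), as were 8 of 10 stellate cell markers (162.5 to 436.8 CPM in model mice and 56.78 to 144.9 CPM in controls). Higher levels were also found for 7 of 9 endothelial markers (65.53 to 236.7 CPM in model mice and 50.04 to 97.58 CPM in controls) and 2 of 7 cholangiocyte markers (54.45 to 450.8 CPM in model mice and 61.08 to 96.16 CPM in controls). An index of the circadian clock, the mean standardised level of 4 genes of one phase minus that of 9 genes of the opposite phase, was -0.566 ± 0.386 in model mice and 1.70 ± 2.06 in controls, where it ran between -1.95 in control 6 and 3.453. The index differed between the groups, so a fit with it as a covariate cannot fully tell clock phase from group. The SE of Hal, for example, was 0.275 in that fit and 0.189 in the main fit. The part of cell makeup and of clock phase in the results below was not tested beyond the alternatives given beside them.

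In model livers 7 of the 9 genes were lower than in controls at an adjusted p below 0.05 (edgeR's quasi-likelihood test, Benjamini-Hochberg adjustment over all genes tested), and 0 were higher (0 also at an unadjusted p below 0.05, and with DESeq2 and limma-voom). Among all genes tested, 28.8% were lower and 31.2% were higher. The median log2 fold change, model over control, was -0.53 over the 9 genes and 0.01 over all genes. Sdsl and Tdo2 were the 2 genes whose model values all lay below all control values, a pattern found in 6.02% of all genes. Uroc1 and Prodh did not pass the test. In bulk liver, fewer hepatocytes and less of an RNA per hepatocyte cannot be told apart.

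**Figure D1:**
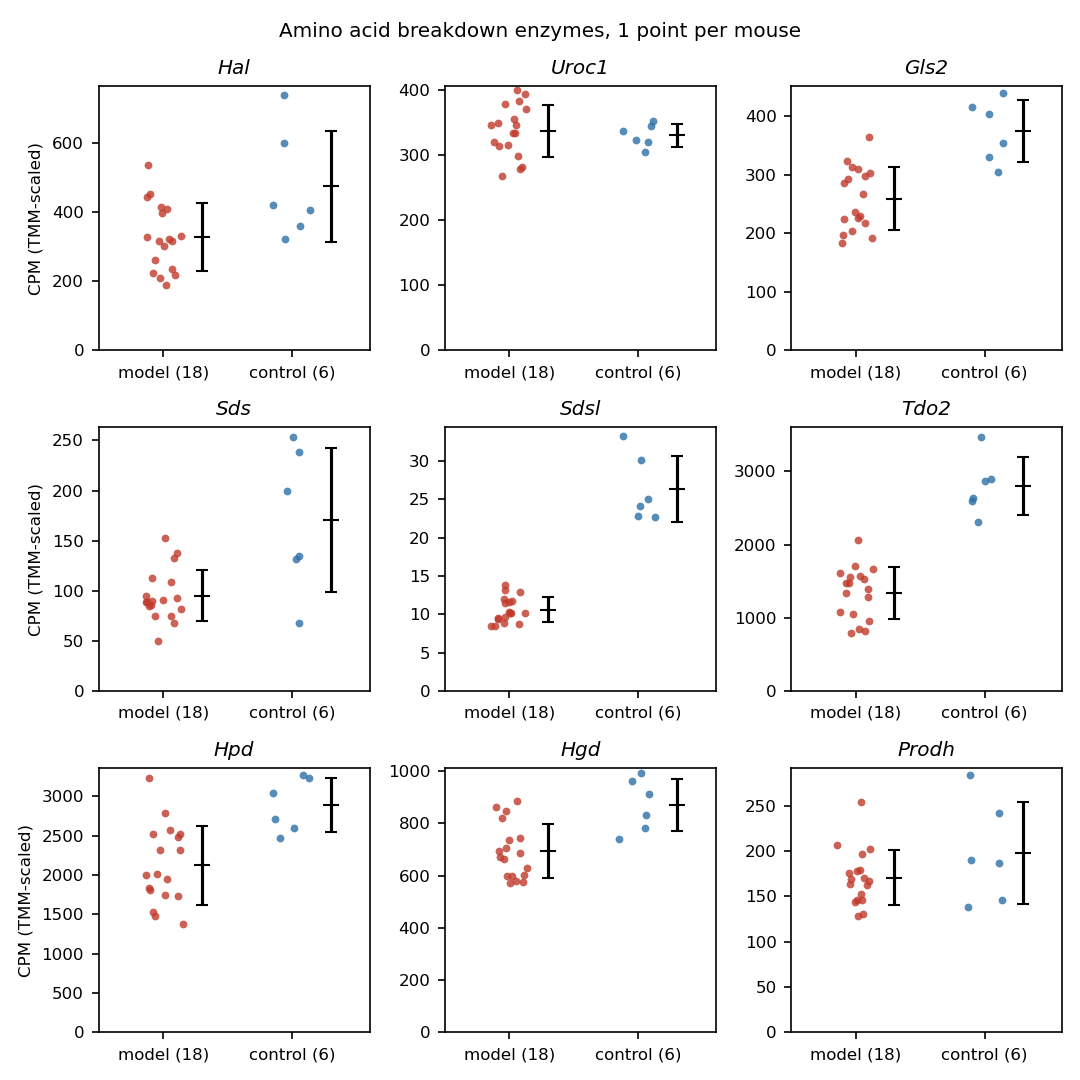
Level of each of the 9 genes in every mouse, in TMM-scaled CPM on linear axes that start at 0, with 18 model mice to the left of 6 controls in each panel. Points are mice and bars are the mean and SD. The groups are separate for Sdsl and Tdo2 and overlap for the other 7 genes.

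The calls depend on the scaling of the libraries. With library totals alone, the median gene stood at a log2 fold change of 0.34, and 3 of the 9 genes were lower (Sds, Sdsl and Tdo2) and 1 was higher (Uroc1). Factors taken from the 19 hepatocyte genes set the geometric mean of these genes level between libraries. Whether they also set hepatocyte RNA as a whole level was not tested. With these factors the median gene stood at 0.48, and 2 of the 9 were lower (Sdsl and Tdo2) and 1 was higher (Uroc1). Over all genes, 8.95% were lower and 53.9% were higher with library totals, and 5.33% were lower and 65.7% were higher with hepatocyte factors. The counts given below for each list of genes are to be read against these shares. Those with TMM are to be read against 28.8% lower and 31.2% higher. With upper-quartile factors the median gene stood at 0.11, with 3733 genes lower and 6289 higher, against 5035 lower and 5445 higher with TMM, and 7 of the 9 were lower. A scaling shifts all genes by nearly the same amount, so taking values relative to the median gene removes that shift by construction. Agreement over these 4 scalings after that step is therefore no evidence that a change is stable. Relative to the median gene, Sdsl stood at -1.321 to -1.313, Tdo2 at -1.076 to -1.066, Sds at -0.858 to -0.847, Hpd at -0.464 to -0.456 and Uroc1 at 0.014 to 0.018. Without that step the sign turned with hepatocyte factors for Hpd, Hgd and Prodh, and with library totals for Prodh.

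**Figure D2:**
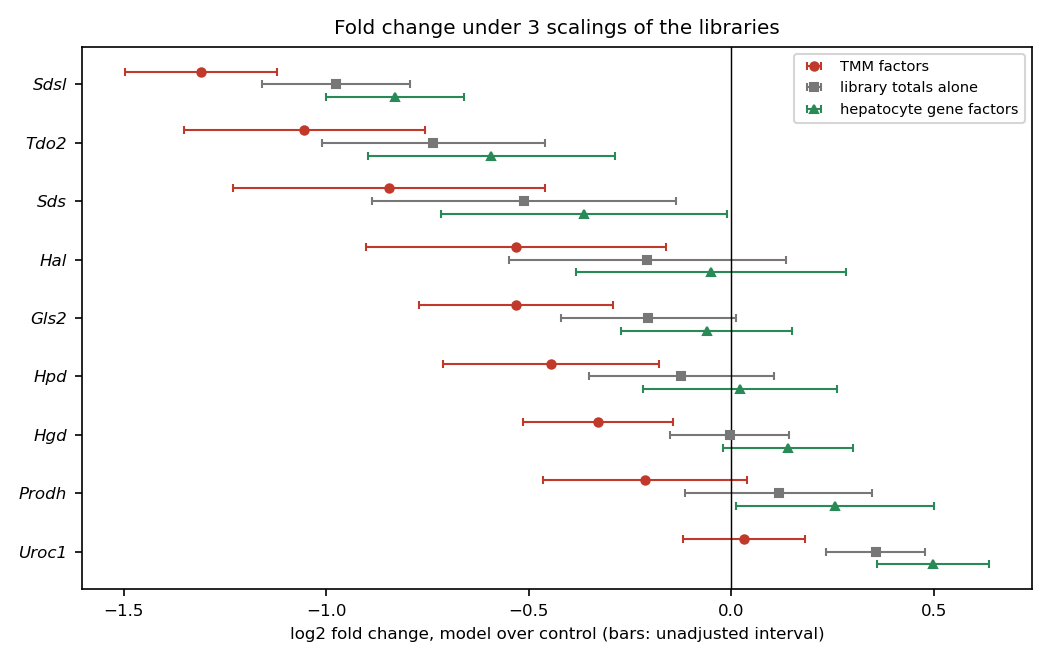
Log2 fold change, model over control, of each of the 9 genes with TMM factors, with library totals alone and with hepatocyte gene factors, with unadjusted 95% intervals as bars (18 model mice and 6 controls). Hal, Gls2, Sds, Sdsl and Tdo2 lie left of 0 in all 3 scalings, with Hal at -0.049 and Gls2 at -0.061 with hepatocyte factors. Of these, Sdsl and Tdo2 were called lower in all 3. Uroc1 lies at 0.03, 0.356 and 0.498, and Hpd, Hgd and Prodh lie on either side of 0.

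Histidine is broken down first by histidine ammonia-lyase, the product of Hal, which makes urocanate, and then by urocanate hydratase, the product of Uroc1. Hal (ENSMUSG00000020017, chromosome 10, bases 93324630 to 93355166 on the plus strand in GRCm39) had 188.8 CPM in the lowest, 321.2 in the median and 537.8 in the highest model mouse. The controls had 360.2, 739.2, 422.9, 407.7, 602.8 and 322.6 CPM. The groups overlapped, with 9 of 18 model mice below the lowest control and none above the highest. Hal averaged 329 ± 97.9 CPM in model mice and 476 ± 161 CPM in controls, which is -0.53 in log2 fold change (SE 0.189, adjusted p = 0.0178). That call rests on the controls with most Hal: without control 2 the value was -0.36 (adjusted p = 0.113) and without control 5 it was -0.46 (adjusted p = 0.0572). It was also lost with the clock index as a covariate (-0.29, adjusted p = 0.403), with library totals (-0.21, adjusted p = 0.306) and with hepatocyte factors (-0.05, adjusted p = 0.80).

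Uroc1 (ENSMUSG00000034456, chromosome 6, bases 90310266 to 90341533 on the plus strand) had 267.1, 340.2 and 399.3 CPM in the lowest, median and highest model mouse. The controls had 303.9, 344.2, 322.8, 319.3, 352.4 and 337.2 CPM and lay inside the range of the model mice, of which 4 were below and 6 above all controls. The means were 337 ± 39.8 CPM in model mice and 330 ± 17.9 CPM in controls (SD), a log2 fold change of 0.03 with a 95% interval of -0.121 to 0.182 (adjusted p = 0.748). The spread of Uroc1 was the smallest of the 9 genes, with a coefficient of variation of 11.8% in model mice and 5.43% in controls.

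A ratio of 2 genes within a library is free of any scaling factor. The log2 ratio of Hal to Uroc1, in CPM, averaged -0.084 ± 0.318 in model mice and 0.467 ± 0.412 in controls, a difference of -0.551. It was below the lowest control in 10 of 18 model mice. This ratio and the 3 given below were chosen after the values had been seen, so they are a description with no test. The histidine list holds 4 further genes, of which 2 were lower and 0 were higher with TMM (0 also at an unadjusted p below 0.05, and with DESeq2 and limma-voom), and 0 were lower and 2 were higher with hepatocyte factors. Amdhd1 and Ftcd, whose products act in the steps after Uroc1, stood at log2 fold changes of 0.06 (adjusted p = 0.638) and 0.06 (adjusted p = 0.474), and are named to complete the pathway. Hdc, whose product turns histidine into histamine, averaged 24.9 ± 6.91 CPM in model mice and 41.6 ± 5.40 CPM in controls (log2 fold change -0.74, adjusted p = 0.000235), and was not called with hepatocyte factors (-0.28, adjusted p = 0.125). Aldh1l1, a folate enzyme that uses formyl groups, stood at -0.30 (adjusted p = 0.00979) with TMM and at 0.17 with hepatocyte factors.

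**Figure D3:**
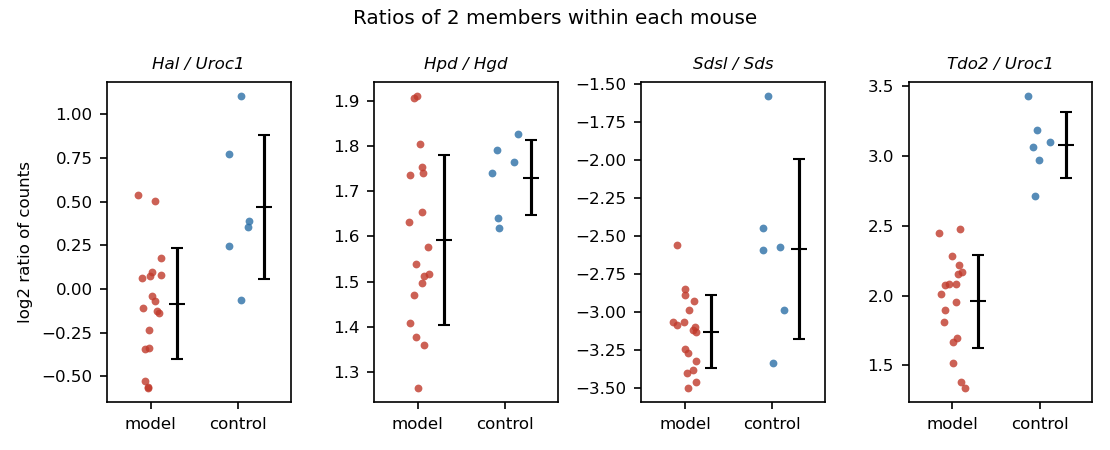
Log2 ratio of 2 of the 9 genes within each library, for Hal to Uroc1, Hpd to Hgd, Sdsl to Sds and Tdo2 to Uroc1, with 18 model mice to the left of 6 controls. Points are mice and bars are the mean and SD. All 18 model mice lie below all controls for Tdo2 to Uroc1, and the groups overlap for the other 3 ratios.

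Serine dehydratase, the product of Sds, turns serine and threonine into pyruvate and 2-oxobutanoate with release of ammonia, and Sdsl encodes a related enzyme. The genes are neighbours on chromosome 5 and are read in opposite directions, Sds (ENSMUSG00000029597) on the plus strand at bases 120614591 to 120621997 and Sdsl (ENSMUSG00000029596) on the minus strand at bases 120596251 to 120610875. The start of Sds lies 3716 bases from the end of the Sdsl interval, where Sdsl begins to be read. Sdsl had 8.472, 10.22 and 13.82 CPM in the lowest, median and highest model mouse. In controls it had 22.80, 33.13, 24.07, 22.63, 30.04 and 25.05 CPM. All 18 model mice were below all 6 controls. Sdsl averaged 10.6 ± 1.66 CPM in model mice and 26.3 ± 4.31 CPM in controls, a fold of 0.404 (log2 fold change -1.31, SE 0.0957, adjusted p = 2.51e-11). The fold was the largest decrease of the 9 genes, and Sdsl was called lower in each of the 36 alternatives run.

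Sds had 50.46, 89.38 and 152.4 CPM in the lowest, median and highest model mouse. In controls it had 68.05, 199.7, 131.5, 134.8, 238.3 and 253.1 CPM. Its level varied most among controls, with a coefficient of variation of 41.8%, against 26.8% in model mice. All 18 model mice were below the control median, but just 1 was below control 1, the lowest of the controls. Sds averaged 95.1 ± 25.5 CPM in model mice and 171 ± 71.5 CPM in controls (log2 fold change -0.85, SE 0.196, adjusted p = 0.000636). With hepatocyte factors the value was -0.36 (adjusted p = 0.0723). Exons of Sds share 360 bases with exons of Plbd2 on the opposite strand, and 21.2% of the 50-base words of its transcripts occur in transcripts of Plbd2 or Gm15690, both on the opposite strand. Plbd2 averaged 78.7 ± 7.54 CPM in model mice and 106 ± 20.0 CPM in controls (log2 fold change -0.43, SE 0.0797, adjusted p = 4.6e-05). The sources used here do not say whether counting used the strand, so part of the Sds counts may be uncertain. No 50-base word was shared between Sds and Sdsl.

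Within libraries the log2 ratio of Sdsl to Sds averaged -3.132 ± 0.242 in model mice and -2.586 ± 0.594 in controls, a difference of -0.546, with 4 of 18 model mice below the lowest control. Without control 1, which had the least Sds of the controls, the difference was -0.344. Of 9 tested further genes of serine, threonine and glycine breakdown, 4 were lower and 0 were higher with TMM (0 also at an unadjusted p below 0.05, and with DESeq2 and limma-voom), while 1 was lower and 6 were higher with hepatocyte factors. Gldc, the decarboxylase of the glycine cleavage system, averaged 138 ± 20.6 CPM in model mice and 255 ± 89.2 CPM in controls (log2 fold change -0.89, adjusted p = 1.7e-05), and it was also lower with hepatocyte factors (-0.42). Gcat, which splits the threonine product 2-amino-3-ketobutyrate, averaged 6.93 ± 1.62 CPM in model mice and 10.9 ± 1.59 CPM in controls (-0.65, adjusted p = 0.000136), and was not called with hepatocyte factors (-0.19, adjusted p = 0.185). Tdh, threonine dehydrogenase, had 3 counts over all model libraries and 0 over all controls and was not tested.

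Gls2 encodes the liver type of glutaminase, which releases ammonia from glutamine in periportal hepatocytes. It lies on chromosome 10 at bases 128030326 to 128045873 on the plus strand (ENSMUSG00000044005). Its levels were 184.2, 252.3 and 364.6 CPM in the lowest, median and highest model mouse and 304.9, 416.2, 355.1, 330.0, 404.4 and 439.1 CPM in the controls. Of the 18 model mice 14 were below the lowest control and none was above the highest. Gls2 averaged 260 ± 53.5 CPM in model mice and 375 ± 53.0 CPM in controls (log2 fold change -0.53, SE 0.122, adjusted p = 0.000529). With library totals it stood at -0.21 (adjusted p = 0.106), and with hepatocyte factors at -0.06 (adjusted p = 0.616). Its exons share 97 bases with Spryd4, which is read from the other strand. Of 8 further genes of glutamine and glutamate use, 2 were lower and 2 were higher with TMM, while 1 was lower and 7 were higher with hepatocyte factors. Got1, the cytosolic aspartate aminotransferase, was lowest, with 166 ± 62.5 CPM in model mice and 521 ± 176 CPM in controls (-1.65, adjusted p = 4.85e-07).

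Tryptophan 2,3-dioxygenase, the product of Tdo2, opens the ring of tryptophan as the first step of the kynurenine pathway, which in liver leads to nicotinamide nucleotides. Tdo2 (ENSMUSG00000028011, chromosome 3, bases 81864397 to 81883509 on the minus strand) had 794.1, 1438 and 2066 CPM in the lowest, median and highest model mouse. In controls it had 2598, 2872, 3472, 2900, 2310 and 2643 CPM. The highest model mouse was below the lowest control. Tdo2 averaged 1349 ± 355 CPM in model mice and 2799 ± 393 CPM in controls, a fold of 0.482 (log2 fold change -1.05, SE 0.152, adjusted p = 1.48e-06). It was called lower in each of the 36 alternatives, at -0.59 with hepatocyte factors. The log2 ratio of Tdo2 to Uroc1 averaged 1.959 ± 0.334 in model mice and 3.075 ± 0.236 in controls, a difference of -1.116. All 18 model mice had a lower ratio than any control, as they had a lower Tdo2 level, while Uroc1 was the gene with the least spread.

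Of 10 tested further genes of tryptophan breakdown, 7 were lower and 1 was higher with TMM, with a median log2 fold change of -0.62. With hepatocyte factors 3 were lower and 3 were higher, with a median of -0.15. Acmsd, whose product diverts the pathway from nucleotide synthesis, averaged 5.26 ± 1.35 CPM in model mice and 18.5 ± 11.2 CPM in controls (-1.82, adjusted p = 4.18e-08). Kyat3, an aminotransferase of kynurenine, averaged 112 ± 24.9 CPM in model mice and 253 ± 39.4 CPM in controls (-1.17, adjusted p = 1.82e-08). Kmo, the enzyme that hydroxylates kynurenine, was not called (-0.09, adjusted p = 0.348), and Qprt, which makes nicotinate mononucleotide, was higher (0.31, adjusted p = 0.0106). Both were chosen after their values were seen. Ido1, the dioxygenase known from immune and other cells, had 6 counts over all model libraries and 0 over all controls and was not tested.

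Phenylalanine is first turned into tyrosine and then loses its amino group, and Hpd and Hgd encode the dioxygenases of the next steps, which act on 4-hydroxyphenylpyruvate and on homogentisate. Hpd (ENSMUSG00000029445, chromosome 5, bases 123309870 to 123320790 on the minus strand) had 1373, 2006 and 3236 CPM in the lowest, median and highest model mouse and 2474, 3266, 3239, 2594, 3042 and 2708 CPM in the controls. Hgd (ENSMUSG00000022821, chromosome 16, bases 37400515 to 37452382 on the plus strand) had 571.3, 678.5 and 886.8 CPM in the model mice and 740.5, 961.7, 913.1, 831.8, 990.6 and 782.0 CPM in the controls. The groups overlapped for both, with 12 of 18 model mice below the lowest control for Hpd and 13 of 18 for Hgd. Hpd averaged 2123 ± 502 CPM in model mice and 2887 ± 341 CPM in controls (log2 fold change -0.44, SE 0.136, adjusted p = 0.00653). Hgd averaged 693 ± 104 CPM in model mice and 870 ± 101 CPM in controls (-0.33, SE 0.0943, adjusted p = 0.00398). Both directions depend on the scaling: with hepatocyte factors Hpd stood at 0.02 (adjusted p = 0.881) and Hgd at 0.14 (adjusted p = 0.125). With the clock index as a covariate neither was called (adjusted p = 0.0603 and 0.0707).

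The log2 ratio of Hpd to Hgd averaged 1.592 ± 0.188 in model mice and 1.73 ± 0.083 in controls, a difference of -0.138. This was smaller than the SD among model mice and larger than that among controls. Of 18 model mice 10 were below the lowest control and 2 were above the highest. Of 6 further genes of the pathway, 2 were lower and 1 was higher with TMM, while 1 was lower and 4 were higher with hepatocyte factors. Tat, the tyrosine aminotransferase just before Hpd, was the lowest, with 675 ± 216 CPM in model mice and 2747 ± 983 CPM in controls (-2.02, SE 0.192, adjusted p = 2.95e-09), and it stayed lower with hepatocyte factors (-1.54). Qdpr, which regenerates the cofactor tetrahydrobiopterin, stood at -0.30 (adjusted p = 0.00537) with TMM and at 0.16 with hepatocyte factors. Fah, the last enzyme of the pathway, was not called (-0.18, adjusted p = 0.0596), and is given to complete it.

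Proline dehydrogenase, the product of Prodh, oxidises proline in mitochondria. Prodh (ENSMUSG00000003526, chromosome 16, bases 17878221 to 17908067 on the minus strand) had 128.1, 167.8 and 253.6 CPM in the lowest, median and highest model mouse and 138.1, 186.3, 241.7, 146.2, 190.2 and 283.8 CPM in the controls. The ranges overlapped almost fully, with 2 model mice below the lowest control. The means were 171 ± 30.5 CPM in model mice and 198 ± 56.1 CPM in controls, a log2 fold change of -0.21 with a 95% interval of -0.464 to 0.038 (adjusted p = 0.155). Without control 6, which had the most Prodh, the value was -0.09 (adjusted p = 0.568). The sign turned with hepatocyte factors (0.26, adjusted p = 0.068) and with library totals (0.12, adjusted p = 0.401). With the clock index as a covariate Prodh was called lower (-0.55, adjusted p = 0.00276). Of 8 further genes of the proline list, 3 were lower and 2 were higher with TMM, and 0 were lower and 6 were higher with hepatocyte factors. Aldh4a1, which takes up the product of Prodh, was higher (196 ± 15.5 CPM in model mice and 155 ± 33.2 CPM in controls, 0.34, adjusted p = 0.00115). Pycr3, a proline synthesis gene that the table of names calls Pycrl, was lower with TMM (-0.46, adjusted p = 2.24e-05) and stood at 0.00 with hepatocyte factors.

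Between genes, levels are set side by side per kilobase of exon (RPKM, from TMM-scaled library sizes and the deposited exon lengths). In model livers the order was Hpd (998 ± 236), Tdo2 (347 ± 91.4), Hgd (265 ± 39.7), Uroc1 (97.1 ± 11.5), Gls2 (74.7 ± 15.4), Hal (59.4 ± 17.6), Sds (56.2 ± 15), Prodh (21.9 ± 3.91) and Sdsl (7.09 ± 1.11). In controls it was Hpd (1360 ± 160), Tdo2 (721 ± 101), Hgd (333 ± 38.5), Gls2 (108 ± 15.2), Sds (101 ± 42.2), Uroc1 (95.0 ± 5.16), Hal (85.8 ± 29.0), Prodh (25.4 ± 7.2) and Sdsl (17.6 ± 2.88). In model livers Hal and Sds lay closer together than their SDs, as did Gls2 and Hal. In controls Gls2, Sds, Uroc1 and Hal lay close together. These SDs are between mice, and the order of genes within mice was not tested. Gls2 was above Uroc1 in every control, by the least in control 1 (304.9 and 303.9 CPM, with exon lengths of 3474 and 3472 bases). The deposited length covers all annotated exons of a gene, so these levels are approximate.

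Among the 18 model mice the genes also varied together. Over 4 relations of log2 CPM, Hal with Uroc1 gave Pearson's r = 0.779 (permutation p = 0.00015, adjusted p = 0.00015) and Spearman's rho = 0.715 (p = 0.00113), and r = 0.739 without the 2 mice farthest from the median. Hpd with Hgd gave r = 0.871 (permutation p = 1e-05, the smallest the resamples can give, adjusted p = 2e-05), rho = 0.884 (p = 1e-05) and r = 0.831 without 2 mice. Sds with Sdsl gave r = 0.803 (permutation p = 1e-05, adjusted p = 2e-05), rho = 0.767 (p = 0.00032) and r = 0.729 without 2 mice, and Sds with Gls2 gave r = 0.761 (permutation p = 0.00014, adjusted p = 0.00015), rho = 0.721 (p = 0.00125) and r = 0.716. The points share libraries and scaling. The permutation tests set r against 0 and not against the r of other pairs of genes. With hepatocyte factors r was 0.640, 0.808, 0.690 and 0.677 in the same order. Of all 36 pairs of the 9 genes, 24 had r over 0.5 and 1 was below 0, that of Sdsl with Tdo2 at -0.125. The highest was 0.879, for Hal with Gls2. The share of such pairs among other genes was not computed, so these counts do not set the 9 genes apart.

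Tdo2 and the serine enzymes did not vary together among model mice (r = 0.02 for Sds with Tdo2). Model mouse 16 had the most Sds (152.4 CPM) and the most Sdsl (13.82 CPM) of the 18 and the least Tdo2 (794.1 CPM). Model mouse 10 had the most Hal (537.8 CPM) and Tdo2 (2066 CPM), with Sds at 75.40 CPM. The mean standardised level of the 9 genes was highest in model mice 1 (1.183), 14 (1.178) and 7 (1.076) and lowest in model mice 4 (-1.405), 13 (-1.113) and 2 (-1.005). As a description over the 18 mice, this mean went with the summed hepatocyte markers at r = 0.619 (rho 0.659), with the TMM factor at r = -0.722 (rho -0.624), with the summed macrophage markers at r = -0.401 (rho -0.447) and with the clock index at r = -0.06 (rho 0.015). The part of hepatocyte content in this common variation was not tested. Of 9516 genes with at least 5 CPM on average, those most like this mean over the 18 model mice were Papss2 (r = 0.894), which makes the donor for sulfation, Cbs (0.880), the entry enzyme of the transsulfuration of homocysteine, Lap3 (0.875), a leucine aminopeptidase, Serping1 (0.869), a secreted complement inhibitor, and Ndrg2 (0.867). Of these, Cbs, Serping1 and Ndrg2 were lower in model mice with TMM (log2 fold changes -0.48, -0.36 and -0.32), while Papss2 (-0.20) and Lap3 (-0.01) were not called (adjusted p = 0.109 and 0.885).

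**Figure D4:**
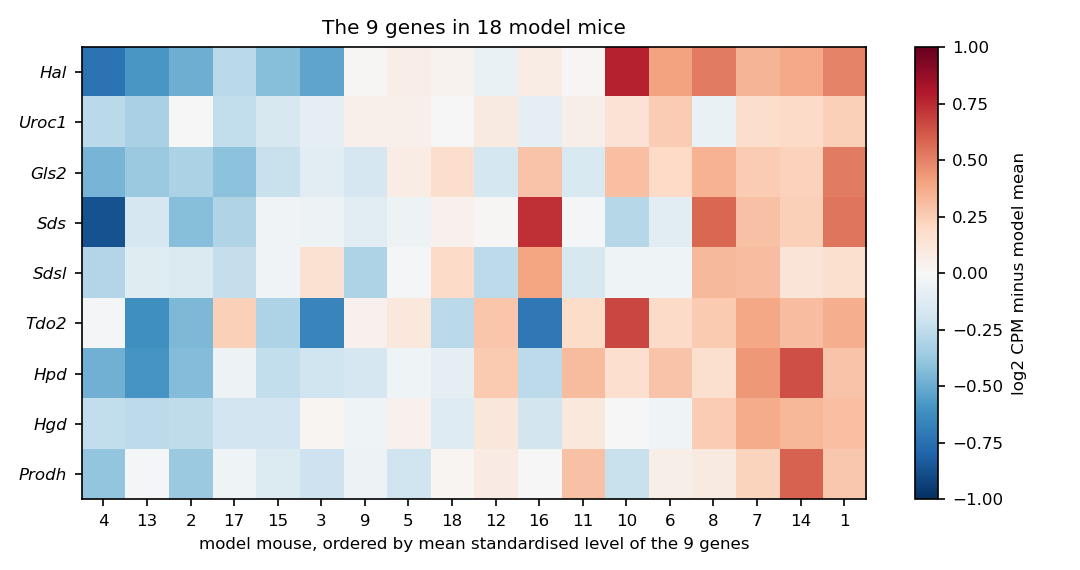
Log2 CPM of each of the 9 genes in each of 18 model mice minus the mean of the gene over model mice, as colour, with mice ordered by the mean standardised level of the 9 genes. Model mouse 16 has high Sds and low Tdo2, and mice 4, 13 and 2, at the left, are low for most genes.

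Over the 8 amino acid pathways, 66 further genes were tested, of which 25 were lower, 9 were higher and 32 were not called, with a median log2 fold change of -0.08 (0.01 over all genes). With hepatocyte factors 6 were lower and 44 were higher, where 5.33% of all genes were lower and 65.7% higher. With library totals 11 were lower and 36 were higher, where 8.95% of all genes were lower and 53.9% higher. The counts of higher genes with these 2 scalings thus lie near the shares of all genes. Lysine breakdown had 3 lower and 1 higher of 6 genes with TMM, 1 lower and 3 higher with library totals, and 0 lower and 3 higher with hepatocyte factors. Aadat, an aminotransferase that also acts on kynurenine, was lower with TMM (-0.69, adjusted p = 1.73e-05) and not called with hepatocyte factors (-0.24, adjusted p = 0.077). Dhtkd1, of the oxoadipate dehydrogenase complex, was higher (0.61, adjusted p = 8.18e-05), also with hepatocyte factors (1.08). Branched-chain amino acid breakdown had 3 lower and 2 higher of 17 genes with TMM, 0 lower and 12 higher with library totals, and 0 lower and 14 higher with hepatocyte factors. Its median was -0.02 with TMM, close to that of all genes, and 0.44 with hepatocyte factors, where the median gene stood at 0.48. Ivd, of the leucine pathway, stood at -0.34 with TMM (adjusted p = 0.00111) and at 0.12 with hepatocyte factors (adjusted p = 0.128). Mccc1, of the same pathway, was higher with both (0.36, adjusted p = 0.000158, and 0.82).

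**Figure D5:**
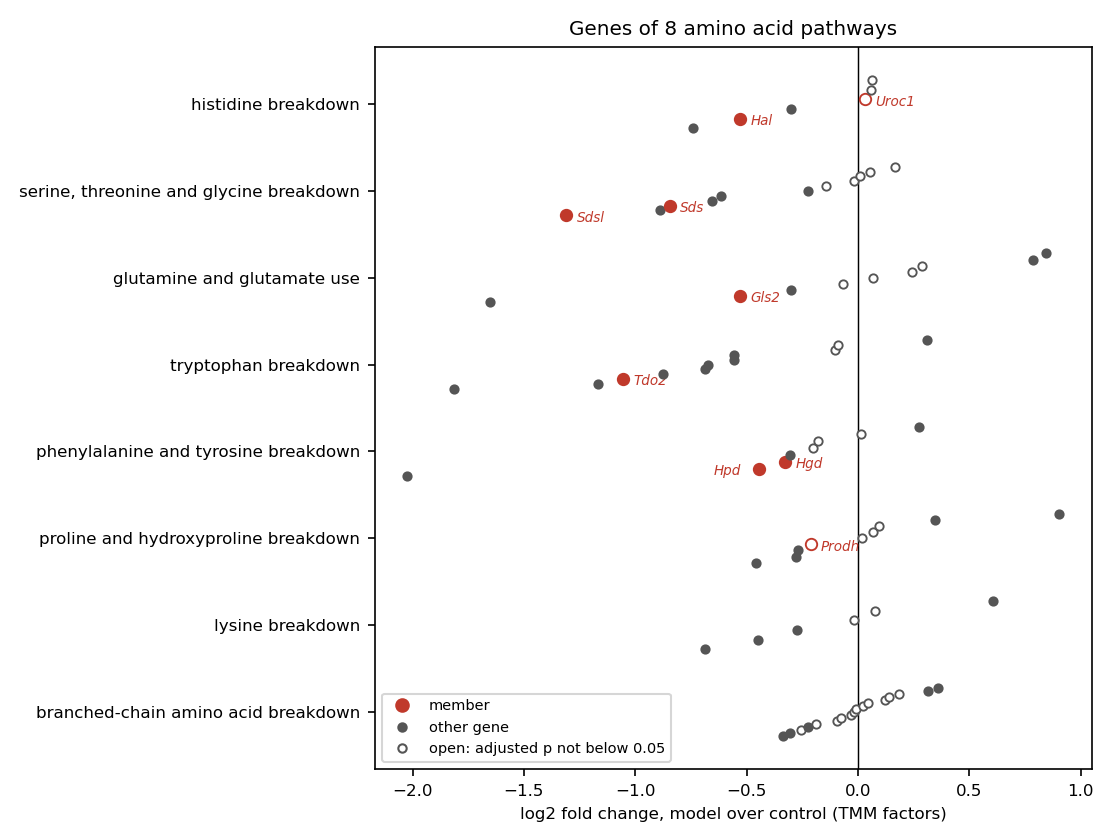
Log2 fold change, model over control, with TMM factors, of each tested gene of 8 amino acid pathways, with the 9 genes of the report in red and names. Filled points have an adjusted p below 0.05 and open points do not. Tat, Acmsd and Got1 lie farthest left, between -2.02 and -1.65.

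Carriers that bring amino acids into hepatocytes or mitochondria were lower for 11 and higher for 2 of 16 genes with TMM, and lower for 6 and higher for 5 with hepatocyte factors. Slc43a1, a carrier of branched-chain and aromatic amino acids, averaged 2.39 ± 1.02 CPM in model mice and 5.77 ± 3.02 CPM in controls (-1.28, adjusted p = 0.000177), and Slc1a4, a carrier of neutral amino acids, averaged 13.2 ± 3.40 CPM in model mice and 3.90 ± 0.982 CPM in controls (1.76, adjusted p = 1.58e-08). Of 18 regulators known to act on such genes, 10 were lower and 1 was higher with TMM, while 3 were lower and 6 were higher with hepatocyte factors. Foxa3, a forkhead factor, averaged 33.6 ± 4.74 CPM in model mice and 64.2 ± 8.79 CPM in controls (-0.94, adjusted p = 2.11e-09). Cebpb, a C/EBP factor, averaged 21.8 ± 4.00 CPM in model mice and 44.4 ± 17.6 CPM in controls (-1.03, adjusted p = 4.72e-06). Foxa3 and Cebpb were also lower with hepatocyte factors. Of the other forkhead and C/EBP genes in the list, Foxa2 was higher with TMM (0.34, adjusted p = 0.0447). Foxa1 (-0.14, adjusted p = 0.464) and Cebpa (-0.16, adjusted p = 0.156) were not called with TMM. Foxa1, Foxa2 and Cebpa were chosen after their values were seen.

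The periportal list without the 9 genes had 11 lower and 2 higher of 15 with TMM (median -0.84), and 9 lower and 4 higher with hepatocyte factors (median -0.39). Etnppl, an ethanolamine phosphate lyase, averaged 68.9 ± 31.1 CPM in model mice and 293 ± 64.4 CPM in controls (-2.09, adjusted p = 4.23e-08), and G6pc, the catalytic subunit of glucose 6-phosphatase, averaged 157 ± 67.4 CPM in model mice and 665 ± 97.6 CPM in controls (-2.09, adjusted p = 2.84e-08). The pericentral list had 1 lower and 6 higher of 16 with TMM (median 0.18), 1 lower and 10 higher with library totals (median 0.50), and 1 lower and 12 higher with hepatocyte factors (median 0.64), with Slc22a3, a carrier of organic cations, at 1.04 with TMM (adjusted p = 0.00046). Whether the 9 genes moved with zonation was not tested.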

How the data were processed

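Liver RNA of 24 mice was sequenced as polyA-selected libraries on DNA nanoballs, per the labels' protocols. The authors deposited raw read counts per Ensembl gene, with exon positions and a summed exon Length in bases, which was used only for levels per kilobase. The deposited counts refer to GRCm39, per the submitters' processing notes. The aligner, the counter and its strand setting: not given in the sources used here. The sources name no molecular identifiers, so counting intervals and floors cover counting error only.

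Groups came from the labels, which do not say whether mice shared cages or litters. A table of gene names (GENCODE M21, from an earlier build, used for names and transcript words only) gave symbols to 51498 of 78298 IDs, holding 99.57% of counts, and 0 columns belonged to no sample. The level of 3 counts was 0.0514 to 0.0949 CPM. No 2 libraries of a group matched within sampling noise (smallest chi-square per degree of freedom 19.1 over 168 pairs). Between same-numbered mice of the groups, the correlation of deviations from the group mean was -0.293 for number 5 and 0.0188 to 0.0674 for the other numbers.

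Genes were tested in edgeR 4.0.16 (R 4.3.3) by quasi-likelihood, with TMM factors, the default expression filter, all 24 libraries and group as the sole term. A standard error is the size of the log2 fold change over the root of its F value. In simulated counts of 17188 genes for these libraries, 89 of 100 genes set to a 2-fold change were called and 75 of 100 set to 1.5-fold, and 10 of 174 calls were false. Log2 CPM values for correlations used a prior count of 2, and permutation p-values 100000 resamples. The rest ran in Python 3.11.15 with scipy 1.17.1. Other settings changed the scaling (RLE, upper-quartile, library totals, or hepatocyte gene factors from the geometric mean of 19 genes), the tool (DESeq2 1.42.0, limma-voom of limma 3.58.1), the filter (none, or 1 CPM in 6 libraries), the threshold (0.01), the genes (without mitochondrial and the 20 most abundant), the model terms (clock index, replicate number) or the libraries (each left out in turn).

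The 9 genes and the lists were chosen with earlier results of these data known. The genes named beside them are the 2 called genes with the largest change in each list (mean of at least 1 CPM) and the 5 most like the 9 genes. Of the genes this rule names, 1 is not reported here. Others are said to be chosen after their values were seen or to complete a pathway.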

Additional observations from a re-analysis of the deposited data

How the results depend on the processing

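Over 36 alternatives, Sdsl (log2 fold change -1.351 to -0.830) and Tdo2 (-1.167 to -0.592) kept their direction and their call, while the other 7 genes did not in every alternative. With hepatocyte gene factors 2 of the 9 genes were lower and 1 was higher, of the 66 further breakdown genes 6 were lower and 44 higher, and of all genes 930 were lower and 11473 higher. With library totals alone 3 of the 9 were lower and 1 was higher, 11 further genes were lower and 36 higher, and of all genes 1562 were lower and 9406 higher. Upper-quartile factors gave 16 further genes higher and the clock index 4, against 9 with TMM. Over all genes 6289, 4504 and 5445 were higher, in the same order. With the clock index 5 of the 9 were lower, and 3786 of all genes. Signs turned for Uroc1 with the clock index (-0.012, adjusted p = 0.94), for Hpd (0.021), Hgd (0.140) and Prodh (0.256) with hepatocyte factors, and for Prodh with library totals (0.117). These factors differ from TMM by construction, by the shift of the median gene; why the clock index moved values was not tested. Hal also missed the threshold without an expression filter (-0.520, adjusted p = 0.0607) and at 0.01. With the replicate block, which joins mice that share only a number, 5 of the 9 were lower (3378 of 17456 genes), and Hal (-0.666, adjusted p = 0.0717) and Sds (-0.960, adjusted p = 0.0507) were not called. Leaving out each library gave 6 to 7 of the 9 lower (4787 to 5175 of all genes), and a Hpd to Hgd log2 ratio difference of -0.161 to -0.119. Between same-numbered mice the correlation of deviations was over 0.1 in 0 of 6 pairs, and was -0.293 for number 5. Depth limited none of the 9 genes, whose smallest count was 345.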
